A study of Mus musculus with 15 samples.

Results

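The 10 genes described here, Gfap, Serpina3n, Clu, Aqp4, Aldh1l1, Slc1a2, Slc1a3, S100b, Vim and Aldoc, are transcripts used as markers of astrocytes, measured in cultures of the oligodendrocyte lineage. They were matched by symbol, and all 10 were found among the 45706 genes of the files. They were chosen by name with their measured log2 fold changes of SRF-KO over control in both stages in view, including the opposite directions of some of them. Those effects are therefore a description: where the number of the 10 past a threshold is printed, it stands beside the share of all genes, and nothing is supported with it.

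All cells came from brains of SRF-floxed/floxed mice, whose Srf gene can be removed by the Cre recombinase, and were purified by immunopanning, a capture on antibody-coated dishes. Srf encodes serum response factor, which drives actin cytoskeleton and immediate-early genes. The 4 SRF-KO OL libraries came from oligodendrocyte precursor cells (OPCs) given a lentivirus-CRE-IRES-GFP on day 6 of culture and frozen on day 3 of differentiation, as oligodendrocytes (OLs). The 4 control OL libraries received a lentivirus with GFP alone. The treatment label of the SRF-KO OLs ends in the word control, while their titles say SRF-KO, and the titles were followed. The 3 SRF-KO OPC libraries came from dividing OPCs given AAV-CRE and frozen 48 hours after infection, and the 4 control OPC libraries received AAV-deleted CRE. The AAV drives Cre from the CMV promoter, which is not specific to a cell type, and every group carries the floxed alleles. No library came from Cre-treated cells without them. The animals' age is not given in the labels, and nothing says that libraries came from separate animals, so p-values measure the spread between these samples only.

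Astrocytes are the glial cells that clear glutamate and potassium, supply metabolites to neurons and line blood vessels with water channels. After injury or inflammation they become reactive and raise intermediate filament proteins, chiefly GFAP and vimentin, and the secreted protease inhibitor Serpina3n. Cytokines of the gp130 family acting through STAT3 are a known route to Gfap transcription. Several of these genes are not exclusive to astrocytes: Vim and Slc1a3 are also transcribed in OPCs, S100b in cells of the oligodendrocyte lineage and Serpina3n in reactive oligodendrocytes.

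Depth, as the sum of a library's expected counts, was 4303739 to 11721394 for SRF-KO OLs against 7188698 to 13139258 for control OLs. It was 9074812 to 15125229 for SRF-KO OPCs against 8964310 to 16026511 for control OPCs. Srf itself had 2.06 to 4.34 normalised CPM in SRF-KO OLs against 7.13 to 9.34 in control OLs (log2 -1.45, edgeR adjusted p = 0.0224). In OPCs it had 0.196 to 0.221 CPM in SRF-KO against 5.57 to 9.67 in control libraries (log2 -5.16, edgeR adjusted p = 0.000569). The Srf call in OLs was lost without any 1 of SRF-KO OL replicates 1 to 3 or control OL replicates 1 to 3. Gm26904, a gene on the opposite strand, overlaps Srf. It had 11.2 to 13.8 CPM in SRF-KO and 12.9 to 17.6 in control OLs, and 0 in OPCs. The library protocol does not mark strand, so OL reads in that overlap cannot be told apart. Normalised CPM is a gene's share of its library's counts after scaling the libraries of 1 stage to each other. In principal component analysis SRF-KO OL replicate 4 lay far from the other OL libraries: its first-axis score was 80.5, theirs were -18.8 to 0.448, and that axis held 40.5% of the variance. Mitochondrially encoded genes took 14.2% of its counts, against 9.08% to 11.6% in the other OL libraries. With these genes removed edgeR called 44 genes in OLs, against 45 with them, and the Gfap estimate was -1.32 both ways. What set this library apart was not tested. Among OPCs it was SRF-KO replicate 2 that lay far out, with a score of 47.6 where the others had -22.95 to 6.01 and 27.3% of the variance on the axis. The OL files list gene lengths that equal the genomic span in 90.0% of 8995 genes with 1 spliced transcript, so their counts include introns, while the OPC files list the spliced length in 89.8%. Levels in OLs and OPCs are therefore not on 1 measure, and no test was made between them.

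The cells' own markers were checked beside the astrocyte genes, per length, in TPM (a length-scaled abundance). In OPCs, Pdgfra, the PDGF receptor that defines OPCs, had 116 ± 5.51 TPM in SRF-KO and 133 ± 11.3 TPM in control libraries (SD, n = 3 and 4), and the myelin gene Mog was at 0 in all 7. In the same libraries Vim, an intermediate filament gene, had 1710 ± 220 TPM in SRF-KO and 2078 ± 79.1 TPM in control OPCs. Slc1a3 had 280.2 ± 13.7 and 256 ± 30.7 TPM in SRF-KO and control OPCs, and Aldoc 277 ± 7.03 and 218 ± 25.5 TPM. The remaining astrocyte genes lay lower, down to S100b at 2.44 ± 0.645 and 1.58 ± 1.05 TPM. Vim was thus above Pdgfra per length in every group of OPCs, while Gfap, at 44.4 ± 1.58 and 31.9 ± 8.41 TPM, was below it.

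In OL libraries Gfap was above Mbp, the gene of myelin basic protein, per counted length. Gfap had 2124 ± 761 TPM in SRF-KO and 4018 ± 775 TPM in control OLs (SD, n = 4 each). Mbp had 504 ± 87.9 TPM in SRF-KO and 641 ± 63.5 TPM in control OLs. These TPM values use lengths with introns and may misplace genes with long introns. Gfap alone took 0.4935% to 0.960% of all counts in SRF-KO OLs and 1.33% to 2.35% in control OLs. Libraries labelled OL thus carried both myelin and astrocyte transcripts at high levels. In such bulk samples, fewer cells of a type and less RNA per cell cannot be told apart.

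Markers of most other cells were low. The summed normalised CPM of 10 microglia markers was 11.1 to 15.9 in SRF-KO OLs and 9.67 to 14.6 in control OLs. In OPCs it was 0.442 to 1.61 with the knockout, against 0 to 0.859 in control libraries. Of these markers 8 were at 0 in every OPC library. The endothelial marker Cldn5 was at 0 in all 15 libraries, and 7 endothelial markers together had 7.92 to 14.0 CPM in SRF-KO and 8.79 to 14.1 CPM in control OLs. Ependymal markers, of cells close to astrocytes, summed to 20.8 to 22.0 CPM in SRF-KO and 20.5 to 31.1 CPM in control OLs, and neuron markers to 127 to 194.7 and 142 to 174 CPM. Fibroblast and mural markers summed to 39.2 to 73.4 CPM in SRF-KO OLs, highest in replicate 4, and to 37.8 to 53.1 CPM in control OLs.

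In SRF-KO OLs the filament gene Gfap was lower than in control OLs in every library, and so, by a narrow margin, was Serpina3n. Gfap (ENSMUSG00000020932, GRCm38 chromosome 11, 102887336 to 102900912, minus strand) encodes the astrocytes' intermediate filament protein. It had 8749, 8977, 7442 and 4778 normalised CPM in SRF-KO OL replicates 1 to 4, against 28228, 17129, 17337 and 12256 in control OL replicates 1 to 4. The highest SRF-KO library lay under the lowest control library, and control replicate 1 and SRF-KO replicate 4 were the extremes. The means were 7486 ± 1928 and 18738 ± 6748 CPM (SD, n = 4 each), a log2 fold change of -1.32 (SE 0.33), or 0.400 times the control level. Without SRF-KO OL replicate 4 or any other single library the estimate lay between -1.48 and -1.06.

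Serpina3n (ENSMUSG00000021091, chromosome 12, 104406729 to 104414329, plus strand) had 814, 980.0, 1047 and 1131 normalised CPM in SRF-KO OL replicates 1 to 4, against 1466, 1573, 1356 and 1134 in control OLs. SRF-KO replicate 4 and control replicate 4 nearly touched. The log2 fold change was -0.48 (SE 0.14). In TPM the groups overlapped, at 301 to 417 in SRF-KO and 339 to 454 in control OLs. The other 10 Serpina3 genes of the same chromosomal cluster, whose reads could be confused with it, summed to 0.958 to 1.32 CPM in SRF-KO OLs and 1.05 to 1.84 in control OLs.

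**Figure D1:**
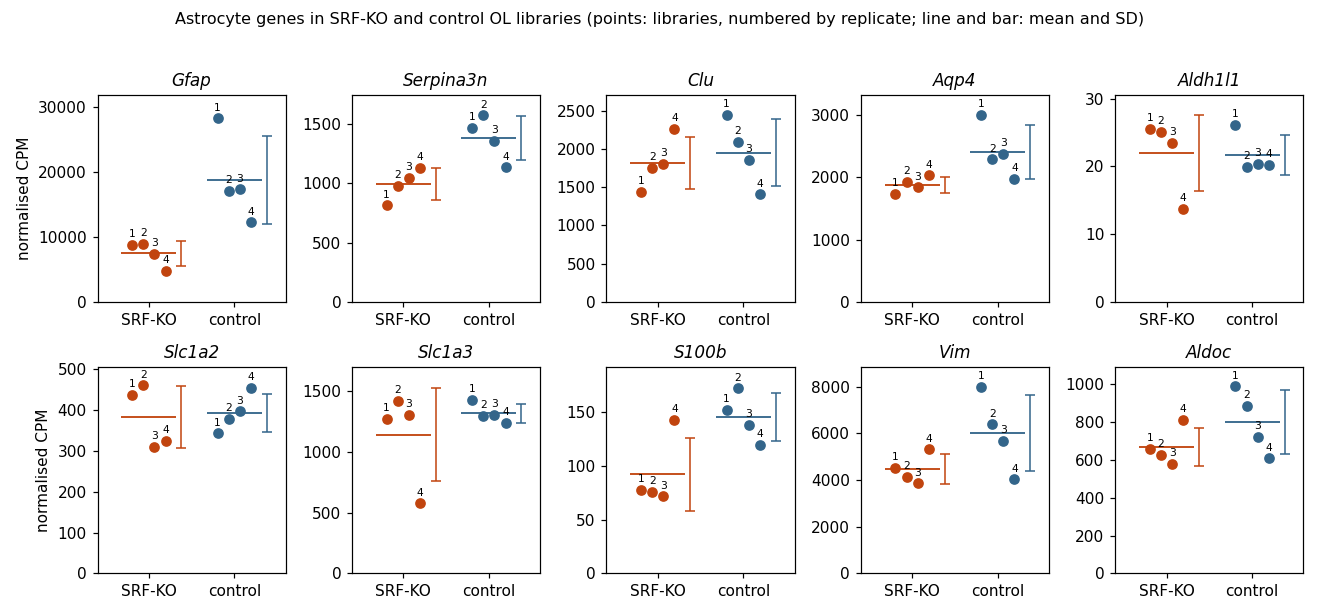
Normalised CPM of each astrocyte gene in the 4 SRF-KO OL (left, red) and 4 control OL (right, blue) libraries, 1 point a library numbered by replicate, with the mean as a line and the SD as a bar. Gfap and Serpina3n do not overlap between groups, and SRF-KO replicate 4 lies apart from replicates 1 to 3 for Aldh1l1, Slc1a3 and S100b.

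The transcripts of Aqp4 and Vim were also lower on average, but overlapped between groups in normalised CPM. Aqp4 (ENSMUSG00000024411), the water channel of astrocyte endfeet, had 1732, 1927, 1834 and 2030 normalised CPM in SRF-KO OL replicates 1 to 4, against 3001, 2284, 2369 and 1968 in control OLs. Only control replicate 4 fell within the SRF-KO range, and the log2 fold change was -0.36 (SE 0.14). Vim (ENSMUSG00000026728, chromosome 2, 13573927 to 13582826, plus strand), the type III filament protein that pairs with GFAP, had 4535, 4146, 3869 and 5326 CPM in SRF-KO OLs, against 7991, 6390, 5692 and 4041 in control OLs. Control replicate 4 lay among the SRF-KO libraries (log2 -0.43, SE 0.23), whereas in TPM all SRF-KO libraries were below all controls, at 2330 to 3184 against 3419 to 4161.

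S100b (ENSMUSG00000033208, chromosome 10, 76253853 to 76261159, plus strand), a calcium-binding protein, had 77.8, 75.9, 72.0 and 143 normalised CPM in SRF-KO OL replicates 1 to 4, against 152, 173, 138 and 119.7 in control OLs. Replicates 1 to 3 of SRF-KO OLs were below every control and replicate 4 was among them. The log2 fold change was -0.66 (SE 0.26), and -0.97 without SRF-KO OL replicate 4. Dip2a, on the opposite strand, overlaps S100b and had 44.5 to 63.8 CPM in SRF-KO and 56.4 to 63.8 in control OLs. The library protocol does not mark strand, so reads in the overlap cannot be told apart.

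The glutamate transporters differed little between groups. Slc1a3 (GLAST; ENSMUSG00000005360, chromosome 15, 8634124 to 8710764, minus strand) had 1272, 1421, 1303 and 576 normalised CPM in SRF-KO OL replicates 1 to 4, against 1428, 1297, 1308 and 1239 in control OLs. Replicate 4 of SRF-KO OLs alone was low: the log2 fold change of -0.21 (SE 0.31) was -0.01 without it. Slc1a2 (GLT-1; ENSMUSG00000005089, chromosome 2, 102658659 to 102790784, plus strand) ranged from 311 to 461 CPM in SRF-KO and 343 to 455 in control OLs (log2 -0.04, SE 0.17).

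The metabolic and secreted genes overlapped as well. Clusterin (Clu; ENSMUSG00000022037, chromosome 14, 65968483 to 65981547, plus strand), a secreted chaperone, ranged from 1439 to 2259 normalised CPM in SRF-KO and 1407 to 2446 in control OLs (log2 -0.10, SE 0.21). Aldoc (ENSMUSG00000017390, chromosome 11, 78322968 to 78327781, plus strand), the brain form of the glycolytic enzyme aldolase, ranged from 579 to 811 in SRF-KO and 608 to 989 in control OLs (log2 -0.26, SE 0.19). Aldh1l1 (ENSMUSG00000030088, chromosome 6, 90486427 to 90600203, plus strand), a folate enzyme used as a pan-astrocyte marker, ranged from 13.8 to 25.6 in SRF-KO and 19.9 to 26.1 in control OLs (log2 0.03, SE 0.23).

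In OLs 9 of the 10 genes had a negative log2 fold change, with a median of -0.31 against 0.02 over all 15193 genes tested, of which 53.9% were positive. With library totals in place of TMM scaling 4 of the 10 were positive, and the median of all genes was 0.24. The edgeR quasi-likelihood test over all genes called 0 of the 10 at a Benjamini-Hochberg adjusted p of 0.05, beside 0.296% of all genes (0.0658% higher and 0.23% lower), and 3 at an unadjusted p under 0.05, beside 11.6% of all genes. DESeq2 called 1, Gfap, beside 1.97% of all genes. All SRF-KO libraries were below all controls in 2 of the 10, beside 3.9% of all genes, and above them in 0 of the 10, beside 4.19%. Since the contrast was known when the genes were chosen, nothing is read from these counts. Without SRF-KO OL replicate 4 edgeR called Gfap and S100b, beside 4.12% of all genes.

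In SRF-KO OPCs most of the same genes were higher than in control OPCs, with low levels of the ones that differed most. Serpina3n had 8.50, 9.76 and 9.45 normalised CPM in SRF-KO OPC replicates 1 to 3, against 4.85, 5.13, 5.49 and 2.75 in control OPC replicates 1 to 4. All 3 SRF-KO libraries were above all 4 controls, with 77 to 149 counts a library against 32 to 81. The log2 fold change was 1.02 (SE 0.23), or 2.03 times the control level. The other Serpina3 genes of the cluster were at 0 in all 7 OPC libraries.

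Aqp4 was also higher, at 27.9, 27.9 and 34.7 normalised CPM in SRF-KO OPCs, against 18.8, 21.8, 16.5 and 13.4 in control OPCs (log2 0.77, SE 0.18). The lowest SRF-KO library was above the highest control. Clu had 166, 153 and 159.8 CPM in SRF-KO OPCs, against 97.0, 120.1, 99.3 and 108 in control OPCs (log2 0.59, SE 0.077). The 3 SRF-KO libraries were close to each other, and again none overlapped with a control.

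Gfap had 79.3, 86.3 and 79.3 normalised CPM in SRF-KO OPCs, against 65.5, 76.7, 44.0 and 39.9 in control OPCs. The controls spread widely and control replicate 2 came close to the lowest SRF-KO library. The log2 fold change was 0.52 (SE 0.23), and 0.39 to 0.71 with any 1 library left out.

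Aldoc had 324, 341 and 314 normalised CPM in SRF-KO OPCs, against 229, 254, 248 and 269 in control OPCs (log2 0.38, SE 0.058). Slc1a3 had 797, 873 and 777 CPM in SRF-KO OPCs, against 666, 668, 721 and 755 in control OPCs (log2 0.22, SE 0.068). Neither overlapped between groups in CPM, while Slc1a3 did in TPM. Slc1a2 (97.4 to 102 CPM in SRF-KO and 83.0 to 102 in control OPCs; log2 0.11, SE 0.064) and Aldh1l1 (40.6 to 57.8 and 43.9 to 52.8; log2 0.06, SE 0.16) overlapped. S100b had 15 to 38 counts a library in SRF-KO and 7 to 46 in control OPCs, too few to place its log2 fold change of 0.63 (SE 0.47).

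Vim was the member that was lower in SRF-KO OPCs. It had 1970, 1577 and 1740 normalised CPM in SRF-KO OPC replicates 1 to 3, against 2225, 2163, 1993 and 2039 in control OPCs. The groups did not overlap, but SRF-KO replicate 1 lay close under control replicate 3. The log2 fold change was -0.26 (SE 0.100), and SRF-KO replicate 2, which stood apart on the first principal component, was the lowest.

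**Figure D2:**
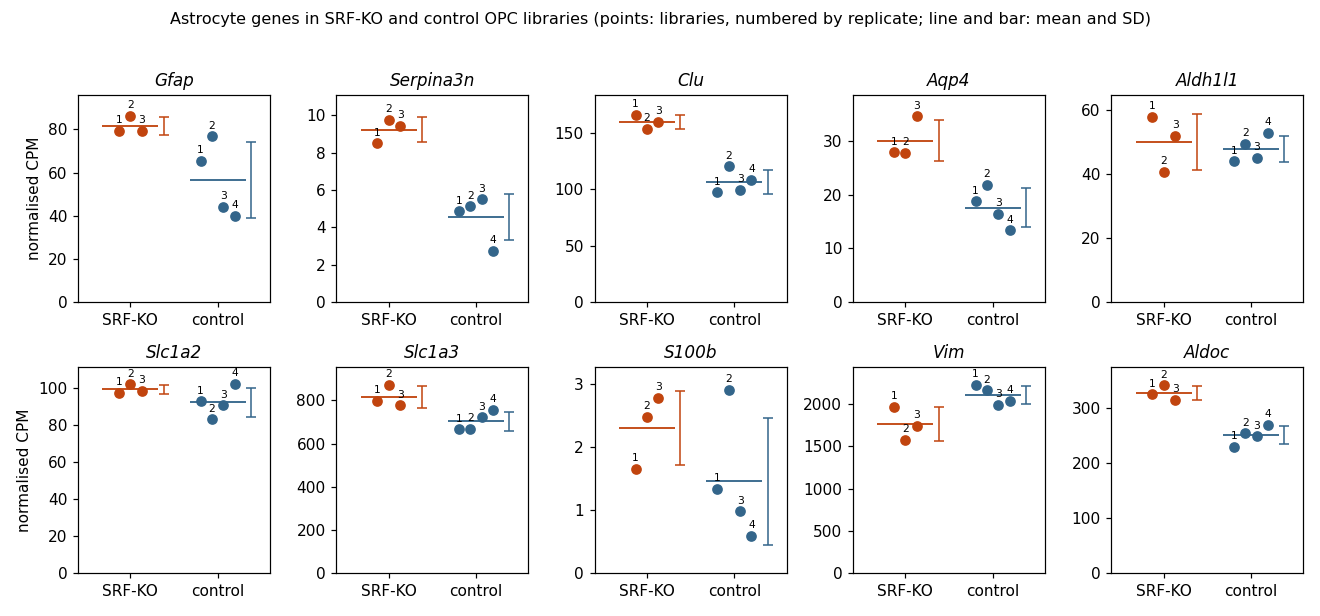
Normalised CPM of each astrocyte gene in the 3 SRF-KO OPC (left, red) and 4 control OPC (right, blue) libraries, 1 point a library numbered by replicate, with the mean as a line and the SD as a bar. Gfap, Serpina3n, Clu, Aqp4, Slc1a3 and Aldoc lie above all controls in all 3 SRF-KO libraries, and Vim below them.

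In OPCs 9 of the 10 genes had a positive log2 fold change, with a median of 0.45 against -0.0013 over all 13271 genes tested, of which 49.8% were positive. edgeR called 0 of the 10 at an adjusted p of 0.05, beside 0.0678% of all genes (0.0226% higher and 0.0452% lower), and 7 at an unadjusted p under 0.05, beside 11.9% of all genes. DESeq2 called 4, Serpina3n, Clu, Aqp4 and Aldoc, beside 1.21% of all genes. In 6 of the 10 all SRF-KO libraries were above all controls, beside 5.96% of all genes, and in 1 below, beside 6.25%. As above, these counts describe the genes that were chosen. The median log2 deviation of the 10 from the control mean was 0.37, 0.49 and 0.44 in SRF-KO OPC replicates 1 to 3, and -0.08 to 0.12 in control OPCs.

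Of the 10 genes, the difference between the stages was largest for Gfap. Its log2 knockout effect was -1.32 in OLs and 0.52 in OPCs, and the fitted difference, OLs minus OPCs, was -1.86 (SE 0.40). For Serpina3n the effects were -0.48 in OLs and 1.02 in OPCs (difference -1.52, SE 0.27), and for Aqp4 -0.36 and 0.77 (difference -1.14, SE 0.23). With TMM scaling the estimates had opposite signs in the stages for all of the 10 but Vim and Aldh1l1. The OL estimates of Clu, Slc1a2 and Slc1a3 were smaller than their errors. With library totals Clu (0.14), Slc1a2 (0.16) and Slc1a3 (0.03) were positive in OLs, as they were in OPCs. In normalised CPM Serpina3n and Gfap were the genes whose groups were apart downward in OLs and upward in OPCs. In TPM the Serpina3n groups overlapped in OLs. The share of all genes with this pattern in both stages was not computed. The differences for Slc1a2 (-0.16, SE 0.18), Vim (-0.19, SE 0.25) and Aldh1l1 (-0.04, SE 0.28) were smaller than their errors. The stages also differ in virus, culture time and counting method, so a difference due to stage cannot be told apart from these.

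**Figure D3:**
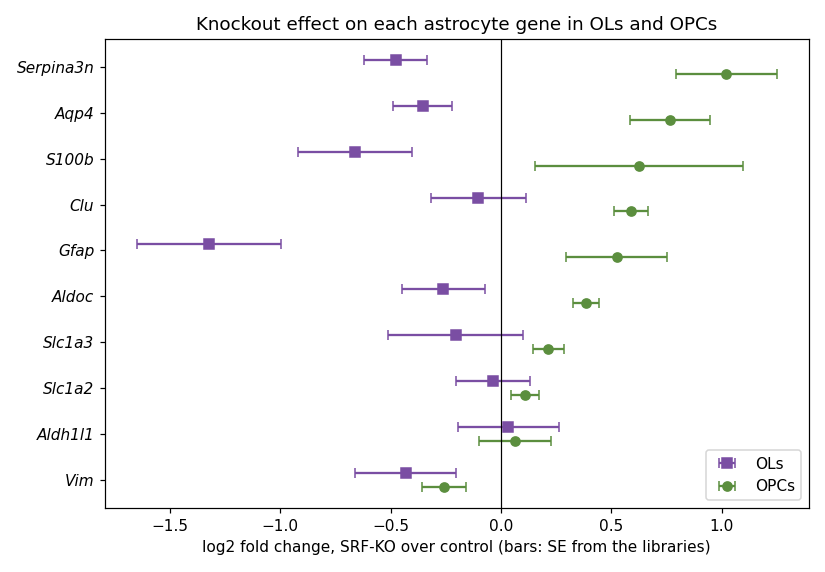
Log2 fold change of SRF-KO over control for each astrocyte gene in OLs (purple squares) and OPCs (green circles), with the SE from the spread of the libraries as bars. Gfap and Serpina3n lie on opposite sides of 0 in the 2 stages, Vim lies below 0 in both, and Aldh1l1 and Slc1a2 lie close to 0.

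Shown are the promoters of Gfap and Serpina3n, apart between groups in normalised CPM in both stages, and of Slc1a3, which holds a STAT match. Each is given as the 250 bases before the annotated start (RefSeq, GRCm38.p6, 5′ to 3′). Capitals mark the STAT letters TTCNNNGAA.
Gfap, chr11:102897201-102897450, minus strand: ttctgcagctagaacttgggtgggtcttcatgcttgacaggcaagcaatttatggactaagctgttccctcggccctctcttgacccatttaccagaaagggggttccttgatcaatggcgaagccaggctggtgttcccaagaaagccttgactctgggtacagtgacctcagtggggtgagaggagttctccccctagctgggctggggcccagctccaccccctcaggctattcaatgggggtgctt
Serpina3n, chr12:104406458-104406707, plus strand: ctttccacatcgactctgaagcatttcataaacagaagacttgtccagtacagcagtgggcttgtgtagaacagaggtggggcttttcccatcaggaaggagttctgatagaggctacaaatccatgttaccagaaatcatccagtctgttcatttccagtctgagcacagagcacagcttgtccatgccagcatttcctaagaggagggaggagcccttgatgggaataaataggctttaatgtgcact
Slc1a3, chr15:8710808-8711057, minus strand: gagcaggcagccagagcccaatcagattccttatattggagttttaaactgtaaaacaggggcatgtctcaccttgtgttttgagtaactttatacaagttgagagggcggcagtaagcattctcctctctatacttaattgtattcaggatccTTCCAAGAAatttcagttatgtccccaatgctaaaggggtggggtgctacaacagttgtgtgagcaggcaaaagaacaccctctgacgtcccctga
RefSeq start windows were found for 8 of the 10 genes, 9 windows in all, and none was found for Aqp4 or Clu. The STAT letters, searched on both strands, were in 2 of the 9 windows, those of Slc1a3 and of 1 of the 2 Aldoc starts, against 7.02% of 32851 windows of all genes. The AP-1 letters TGANTCA were in 0 of the 9 (6.75% of all windows), and the CArG box, the site bound by SRF, in 0 of the 9 (1.47% of all windows). A window without a match says only that these letters are not in it.

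Other genes of the astrocyte programme were taken from 4 lists that hold none of the 10. In OLs the tests called 0 of the 60 genes tested from these lists, of 66 listed, in edgeR at an adjusted p of 0.05, beside 0.296% of all genes. At an unadjusted p under 0.05 there were 16 of 60 (26.7%), beside 11.6% of all genes, and 4 were called in DESeq2, beside 1.97% of all genes. In OPCs edgeR called 0 of 43 tested, beside 0.0678% of all genes, with 14 at an unadjusted p under 0.05 (32.6%, beside 11.9% of all genes) and 2 called in DESeq2 (beside 1.21% of all genes).

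Among other astrocyte markers 24 of 31 tested had negative estimates in OLs (median -0.20, against 0.02 over all genes), while 19 of 28 were positive in OPCs (median 0.13, against -0.0013). Apoe, the main lipid carrier of astrocytes, had 5428 ± 1089 normalised CPM in SRF-KO and 7984 ± 2355 in control OLs (SD, n = 4 each; log2 -0.56, SE 0.26, edgeR adjusted p = 0.427). In OPCs it had 733 ± 126 CPM in SRF-KO and 479 ± 33.3 in control libraries (SD, n = 3 and 4; log2 0.62, SE 0.15, edgeR adjusted p = 0.0867). The groups did not overlap in OPCs, and DESeq2 called Apoe there (adjusted p = 0.00052). The other gene DESeq2 called in OPCs, Chrdl1, was lower, with all SRF-KO libraries below all controls. It had 34.4 ± 4.26 CPM in SRF-KO and 48.7 ± 3.65 in control OPCs (log2 -0.50, SE 0.11, edgeR adjusted p = 0.196; DESeq2 adjusted p = 0.0303). Atp1b2, a subunit of the sodium pump, had 2948 ± 1015 CPM in SRF-KO and 5634 ± 1392 in control OLs (log2 -0.93, SE 0.36, edgeR adjusted p = 0.253; DESeq2 adjusted p = 0.0457). Sox9, an astrocyte and precursor transcription factor, had 415 ± 39.6 CPM in SRF-KO and 530.1 ± 43.7 in control OPCs (log2 -0.35, SE 0.10, edgeR adjusted p = 0.219). Chrdl1 and Sox9 were the 2 of the 28 markers with all SRF-KO OPC libraries below all controls, beside 6.25% of all genes. In 9 of the 28 all SRF-KO OPC libraries were above all controls, beside 5.96% of all genes. Among these 9 were Apoe, Atp1b2 (log2 0.36), Mlc1 (0.35) and Mfge8 (0.12).

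Pan-reactive genes, raised in most forms of astrocyte injury, had a positive median in both stages, 0.58 over 9 tested in OLs and 0.68 over 5 in OPCs. Cd44, a hyaluronan receptor, went against it in OLs, at 376 ± 116 normalised CPM in SRF-KO and 979 ± 297 in control libraries (log2 -1.38, SE 0.32, edgeR adjusted p = 0.0694). All SRF-KO OLs were below all controls for Cd44, and it was called in DESeq2 (adjusted p = 0.000125) and in edgeR without SRF-KO OL replicate 4 (adjusted p = 0.0194). The ferroxidase Cp had 75.7 ± 13.4 CPM in SRF-KO and 44.4 ± 10.9 in control OLs (log2 0.77, SE 0.23, edgeR adjusted p = 0.171; DESeq2 adjusted p = 0.0329). S1pr3, a sphingosine phosphate receptor, had 435 ± 132 CPM in SRF-KO and 449 ± 66.6 in control OLs (log2 -0.04, SE 0.28, edgeR adjusted p = 0.972). In OPCs Cd44 had 45.8 ± 6.18 CPM in SRF-KO and 38.9 ± 1.24 in control libraries (log2 0.23, SE 0.11, edgeR adjusted p = 0.434). The log2 fold changes of Cp, S1pr3 and Timp1 there were 0.77, 0.68 and 0.13. Osmr, the oncostatin M receptor, which is also on the gp130-STAT3 list, had the lowest level and the largest estimate of the 5 tested. It had 2.75 ± 1.14 CPM in SRF-KO and 0.986 ± 0.689 in control OPCs (log2 1.43, SE 0.72, edgeR adjusted p = 0.406).

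Genes named for the A1 form of reactive astrocytes, many of them interferon-inducible, had medians of 0.31 in OLs (7 of 10 positive) and 0.15 in OPCs (6 of 7 positive). H2-D1, a class I antigen-presenting gene, had 28.9 ± 7.33 normalised CPM in SRF-KO and 19.5 ± 1.86 in control OLs (log2 0.55, SE 0.20, edgeR adjusted p = 0.271). Genes of the A2 form had medians of 0.32 in OLs (9 of 10 positive) and 0.11 in OPCs (2 of 3 positive). Tm4sf1, a membrane protein, had 32.2 ± 12.2 CPM in SRF-KO and 16.2 ± 1.85 in control OLs, with no overlap (log2 0.97, SE 0.26, edgeR adjusted p = 0.146; DESeq2 adjusted p = 0.0133). Without SRF-KO OL replicate 4 edgeR called 6 of the 4 lists' genes in OLs, beside 4.12% of all genes: Steap4, Cp, Tm4sf1, Chrdl1 and Ugt1a1 higher, and Cd44 lower.

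The gp130-STAT3 list of 15 genes holds receptors and kinases, and also Lif, Cntf, Il6, Stat3, Socs3, Pias3 and Bcl3. It had medians of -0.06 over 13 tested in OLs and 0.09 over 12 in OPCs. edgeR and DESeq2 called 0 of the list in OLs, beside 0.296% and 1.97% of all genes. Both called 0 in OPCs, beside 0.0678% and 1.21% of all genes. At an unadjusted p under 0.05 there were 0 of 13 in OLs, beside 11.6% of all genes, and 1 of 12, Osmr, in OPCs, beside 11.9%. Stat3 had 233 ± 28.0 normalised CPM in SRF-KO and 255 ± 14.9 in control OLs (log2 -0.13, SE 0.099), and 238 ± 33.6 in SRF-KO and 211 ± 14.2 in control OPCs (log2 0.17, SE 0.13). Both pairs overlapped. Among other intermediate filaments and lamins edgeR called 0 of 8 tested in OLs, beside 0.296% of all genes. In OPCs it called 0 of 9, beside 0.0678% of all genes. At an unadjusted p under 0.05 there were 3 of 8 in OLs, beside 11.6% of all genes, and 3 of 9 in OPCs, beside 11.9%. DESeq2 called 1 in OLs, Nes, beside 1.97% of all genes, and 0 in OPCs, beside 1.21%. Nestin (Nes), the filament of neural precursors, had 66.5 ± 11.7 CPM in SRF-KO and 45.8 ± 1.98 in control OLs (log2 0.54, SE 0.13, edgeR adjusted p = 0.195). In OPCs Nes had 120.2 ± 29.8 CPM in SRF-KO and 159.6 ± 10.53 in control libraries (log2 -0.41, SE 0.23, edgeR adjusted p = 0.332). Its groups were apart in both stages, upward in OLs and downward in OPCs.

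**Figure D4:**
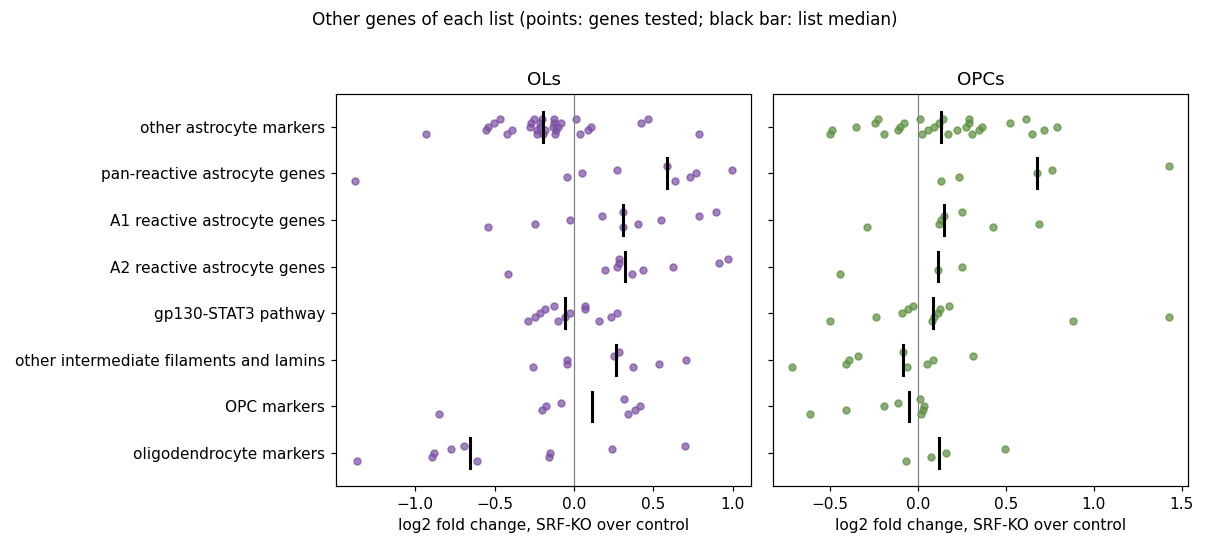
Log2 fold change of SRF-KO over control for the tested genes of 8 lists in OLs (left) and OPCs (right), 1 point a gene, with the list median as a black bar. Other astrocyte markers have a median of -0.20 in OLs and 0.13 in OPCs, and oligodendrocyte markers one of -0.65 in OLs.

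Markers of the cultured cells themselves varied beside the astrocyte genes. Of 10 oligodendrocyte markers 8 had negative estimates in OLs (median -0.65), and 7 were at an unadjusted p under 0.05, beside 11.6% of all genes. The 1 called by edgeR was Opalin, a myelin membrane protein, which fell, where 0.23% of all genes were called lower. It had 5.59 ± 1.82 normalised CPM in SRF-KO and 14.1 ± 1.78 in control OLs (SD, n = 4 each; log2 -1.37, SE 0.22, edgeR adjusted p = 0.0228). In 5 of the 10 all SRF-KO OL libraries were below all controls, beside 3.9% of all genes. In 1, Mal, a membrane raft protein of myelin, they were above, beside 4.19% of all genes. Mal had 61.9 ± 12.3 CPM in SRF-KO and 37.98 ± 6.27 in control OLs (log2 0.70, SE 0.19, edgeR adjusted p = 0.169). DESeq2 called 4 of the 10 lower and 1 higher in OLs, beside 1.97% of all genes in either direction. The 10 markers' summed level was 14020 to 20050 normalised CPM in SRF-KO and 20410 to 38830 in control OLs. The 10 astrocyte genes summed to 17390 to 20390 CPM in SRF-KO and 23250 to 46070 in control OLs, and in OPCs to 3213 to 3530 in SRF-KO and 3264 to 3444 in control libraries. Gfap alone held 4778 to 8977 CPM of the SRF-KO OL sum and 12256 to 28228 of the control OL sum. Taken singly, 8 of the 10 overlapped between groups in OLs. Of 8 OPC markers in OLs 4 had positive and 4 negative estimates. At an unadjusted p under 0.05 were 4 of the 8, beside 11.6% of all genes. edgeR called 1, Matn4, an extracellular matrix protein, which fell, where 0.23% of all genes were called lower. It had 19.8 ± 1.87 CPM in SRF-KO and 35.9 ± 4.30 in control OLs (log2 -0.85, SE 0.11, edgeR adjusted p = 0.025). The calls of Opalin and Matn4 were lost without any 1 of SRF-KO OL replicates 1 to 3 or control OL replicates 1 to 3, and that of Matn4 with library totals too. In 2 of the 8 OPC markers, Pdgfra and Ptprz1, all SRF-KO OL libraries were above all controls, beside 4.19% of all genes. In 1 they were below, beside 3.9% of all genes. Ptprz1, a receptor phosphatase, had 576 ± 4.38 CPM in SRF-KO and 464 ± 37.4 in control OLs (log2 0.31, SE 0.057, edgeR adjusted p = 0.427). OPC markers summed to 1462 to 1561 CPM in SRF-KO and 1447 to 1511 in control OLs, and to 2205 to 2446 in SRF-KO and 2221 to 2551 in control OPCs. The part of cell makeup in these differences was not tested.

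Within groups, deviations from the group mean of log2 CPM were compared across the 15 libraries, which share their stage's scaling. Over the 45 pairs of the 10 genes Pearson's r had a median of 0.26 and ran from -0.71 (Clu and Slc1a2) to 0.84 (Vim and Aldoc). The pooled value can rest on 1 stage: Vim and Aldoc had r = 0.97 in OLs and -0.49 in OPCs, and Aldh1l1 and Slc1a3 had r = 0.80 pooled, 0.95 in OLs and -0.27 in OPCs. SRF-KO OL replicate 4 was low for both Aldh1l1 and Slc1a3. Serpina3n and Aqp4 had r = 0.67 (0.63 in OLs and 0.70 in OPCs), while Serpina3n and Slc1a2 had r = -0.60 (-0.75 and -0.76). Among 8794 genes with an average log2 CPM of at least 3 in both stages, those most like Gfap were Cldn11, a myelin tight-junction gene (r = 0.88), Hadha, of mitochondrial fatty acid oxidation (0.88), Nr4a1, an immediate-early nuclear receptor (0.87), and Zdhhc7, a palmitoyltransferase (0.83). Those most like Serpina3n were Gm20463 (0.88), Ccn1, a secreted matrix protein (0.86), Auh, of leucine breakdown (0.86), and Gm37401 (0.85). These are descriptions over 15 libraries.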

How the data were processed

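PolyA RNA was made into 15 Smart-seq2 libraries, per the labels' protocols, a method that keeps no strand. The submitters' processing notes list STAR and RSEM with no version, and the builds GRCm38 and Rnor_6.0 with no role for either. The deposited expected counts are RSEM's estimated reads per gene, and the deposited TPM values are the same abundances scaled by listed length and library. In the OL files that length is mostly the genomic span. Listed lengths were compared with GENCODE M21 (GRCm38), which also gave coordinates. Symbols were found for 45143 of 45706 IDs.

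After rounding, the expected counts went into edgeR 4.0.16 under R 4.3.3 (filterByExpr with a minimum count of 10, TMM, quasi-likelihood F-test, Benjamini-Hochberg over all genes at 0.05), on each stage's libraries or, for the interaction, on all 15. DESeq2 1.42.0 was an alternative. Log2 fold changes are edgeR's; the SE comes from the spread of log2 CPM (prior count 2) in each group. The OPC and OL fits were also run on simulated counts, and the outcome is not reported here. Genes were named from the 10, Srf, each list's called genes or else its 4 with the highest CPM in a stage, and the 4 most like Gfap and Serpina3n. Outside this rule and chosen after values were seen are Steap4, Chrdl1, Ugt1a1, Mal, Ptprz1 and, in OPCs, Osmr and Atp1b2. So are Dip2a, which overlaps S100b, Gm26904, which overlaps Srf, and the identity markers Pdgfra, Mbp, Mog and Cldn5. Members and lists were chosen with earlier results of these data known. Alternatives were 2 other scalings, no filter, DESeq2, a replicate block, removal of mitochondrially encoded genes and each library left out. No 2 libraries were identical.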

Additional observations from a re-analysis of the deposited data

Results flagged for a closer look

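In normalised CPM Gfap and Serpina3n differed between the stages. Every SRF-KO OL library was below every control OL library, and every SRF-KO OPC library was above every control OPC library. In TPM the Serpina3n groups overlapped in OLs. The fitted difference in log2 effect, OLs minus OPCs, was -1.86 for Gfap and -1.52 for Serpina3n. This pattern was known when the genes were chosen, so no test of it is reported.

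Over 30 sets of a gene and a group of 4 libraries, 2 held a library far from the others, where chance gives about 1 in 20. S100b had 143 normalised CPM in SRF-KO OL replicate 4 against 72.0 to 77.8 in replicates 1 to 3. Aldh1l1 had 26.1 CPM in control OL replicate 1 against 19.9 to 20.3 in replicates 2 to 4.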

How the results depend on the processing

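Depth limits S100b and Serpina3n in OPCs, where counts a library are at most 46 and 149. Counts of genes called depended on the tool. In OPCs edgeR called 9 of 13271 genes, against 101 with no filter on low counts, 139 in DESeq2 and 1 to 4 with a library left out. In OLs it called 45, 10 higher and 35 lower, of 15193, against 74 with library totals (39 higher, 35 lower), 129 with no filter, 299 in DESeq2 and 7 to 636 with a library left out, the lowest without SRF-KO OL replicate 2 and the highest without SRF-KO OL replicate 4. The test of the difference between stages called 18 genes, against 88 with no filter, 169 in DESeq2 and 4 (without SRF-KO OPC replicate 2) to 134 (without SRF-KO OL replicate 4) with a library left out. For the other astrocyte and reactive genes, 0 became 1 with no filter and 2 in DESeq2 in OPCs, and 0 with any library left out. In OLs 0 became 1 with library totals, 2 with no filter, 4 in DESeq2 and 0 to 6 with a library left out. The median of the 10 was 0.38 to 0.52 in OPCs and -0.41 to -0.20 in OLs with a library left out. With library totals it was -0.073 in OLs, where the median of all genes was 0.24 in place of 0.02, so that relative to all genes it stayed negative. The cause was not tested. Of 270 single-gene estimates under alternatives, 13 changed sign, all of Aldh1l1, Clu, Slc1a2 or Slc1a3, and 2 moved by more than 1 SD, those of Serpina3n (-0.25) and Aqp4 (-0.12) in OLs with library totals. Srf kept its call in 13 of 13 alternatives in OPCs and in 7 of 14 in OLs.

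Whether same-numbered control and SRF-KO libraries are true pairs was not settled. Their correlations were -0.02 to 0.05 in OPCs and -0.28 to 0.03 in OLs. Of the knockout libraries, 2 of 3 in OPCs and 0 of 4 in OLs correlated best with their own number. With a replicate block edgeR called 2 genes in OPCs, 5 in OLs and 0 for the difference between stages.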
